A study of Mus musculus with 7 samples.

Results

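Open chromatin was examined around 5 genes used as markers of stem cells in the mouse incisor: Lgr5, Bmi1, Lrig1, Igfbp5 and Sfrp5. They were taken by name, not by a measured value, though with earlier results of these data known. They are 5 of 20665 protein-coding genes on the autosomes. A peak counted for a gene if it lay inside the gene body or within 100 kb of it. The lower incisor of the mouse grows throughout life, and its enamel-forming cells are replaced from the labial cervical loop, an epithelial niche at the back of the tooth. LGR5 is a receptor for R-spondins, which strengthen WNT signalling, and marks stem cells in several epithelia. BMI1 is a subunit of Polycomb repressive complex 1, which keeps developmental genes silent. LRIG1 dampens receptors of the ERBB family, IGFBP5 binds insulin-like growth factors outside the cell, and SFRP5 binds WNT ligands as a secreted antagonist.

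The assay was ATAC-seq by the Omni-ATAC protocol, in which a transposase tags accessible DNA, and each of the 7 libraries gave 1 list of peaks. Ectoderm of the first pharyngeal arches, peeled from its mesenchyme at embryonic day 11.5, had replicates 1 and 2. Sox2-positive cells had replicates 1 and 2: they came from the labial cervical loop of lower incisors at postnatal day 2 and were sorted by a GFP reporter under the endogenous Sox2 promoter. Their label is DESC, for dental epithelial stem cells. Whole lower incisor, whole lower first molar and whole upper first molar, all at postnatal day 2, had 1 library each. Ectoderm was sampled only before birth and teeth only after it, so age and tissue cannot be told apart. Strain, number of animals and pooling are not given in the sources used here, nor whether the other groups carried the reporter. Nothing in the labels says that replicates came from separate litters, so the spread between them may be technical.

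Peak lists hold no read counts, so the depth of the libraries is unknown, and the lists differ in length. On the autosomes ectoderm had 80850 and 49719 peaks, Sox2-positive cells 41829 and 38326, incisor 62074, lower molar 68877 and upper molar 67193. Counts are therefore given for the full lists and for the 38000 autosomal peaks of each library with the smallest p-values, called the equal-length lists. That choice kept 99.1% of Sox2-positive replicate 2 and 61.2% of incisor. At equal length Sox2-positive replicate 2 shared more covered bases with whole incisor (Jaccard index 0.606) than with replicate 1 (0.566), and replicate 1 shared 0.531 with incisor. In the full lists the replicates were closer to each other (0.562) than either was to incisor (0.501 and 0.552). No test was run: incisor is 1 library, and an exact two-sided permutation test of 2 libraries against 2 cannot go below a p of 0.333. The differences below are descriptions, set beside the same count over all autosomal protein-coding genes or all regions.

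The labels were checked by counting marker genes that had a peak no more than 1 kb from either end. In the full lists 6 of 7 dental epithelial markers had one in every library, Trp63 being the exception. At equal length this stayed 6 in the Sox2-positive and ectoderm libraries, while incisor had 4, without Epcam and Sox2, and each molar had 5. Of 7 dental mesenchyme markers the Sox2-positive libraries had 5 each at equal length (Msx1, Twist1, Pdgfra, Col1a1 and Runx2), as did all 3 whole-tooth libraries, against 3 and 4 in ectoderm. In the full lists the Sox2-positive libraries had 6 and 5 mesenchyme markers, incisor 6, each molar 5 and each ectoderm library 4. Of 5 endothelial markers the Sox2-positive libraries had 1 and 2 at equal length, incisor and each ectoderm library 1, and each molar 0. Of 5 blood markers they had 1 (Spi1, which every library had). A peak at a gene end is not expression, and the part that cells of these types play in the results was not tested.

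The RefSeq promoter table gives a start for 4 members, and all 4 had it under a peak in both Sox2-positive libraries, in the full lists (51.9% of 13797 genes with a single listed start) and at equal length (51.2%). A start open in incisor and in neither Sox2-positive library was found for 0 of 4, against 1.94% and 0.573% of genes. The starts of Bmi1, Lrig1 and Igfbp5 were under a peak in all 7 full lists, which 50.9% of the genes also showed. A start peak had to touch the start window, which also takes in the first bases of the gene. By this rule Sfrp5 had a start peak in every full list except whole incisor. In lower molar, however, it lay inside the gene only, short of the start itself. The pattern of every library but incisor was shared by 26 of the 13797 genes (0.188%). This pattern was not among the planned comparisons and is the one seen at Sfrp5, so its rarity is only a description. The 250 bases before the start are printed for Sfrp5, where the libraries differed, and for Lrig1, whose start peak ranked highest in each library. They are 5′ to 3′ on the gene's strand, from RefSeq on GRCm38.p6, and capitals mark every match to the 8 motifs searched. The Sfrp5 run is chr19:42202253-42202502 and the Lrig1 run chr6:94700146-94700395, both on the minus strand.
Sfrp5: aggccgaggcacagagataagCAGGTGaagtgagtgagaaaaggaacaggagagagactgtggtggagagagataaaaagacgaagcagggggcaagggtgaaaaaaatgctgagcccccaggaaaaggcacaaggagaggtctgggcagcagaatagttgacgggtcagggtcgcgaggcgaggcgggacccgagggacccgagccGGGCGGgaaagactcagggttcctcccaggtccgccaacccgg
Lrig1: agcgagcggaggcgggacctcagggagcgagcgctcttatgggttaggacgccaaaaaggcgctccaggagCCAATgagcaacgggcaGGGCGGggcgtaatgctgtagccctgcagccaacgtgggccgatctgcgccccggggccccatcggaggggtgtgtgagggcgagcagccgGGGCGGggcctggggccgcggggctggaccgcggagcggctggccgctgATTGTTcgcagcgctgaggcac

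The Lrig1 run was 71.6% G or C with 26 CpG dinucleotides, and the Bmi1 run 70.4% with 21. Sfrp5 had 59.6% and 13, and Igfbp5 58.8% and 10, against medians of 52.4% and 6 over the 32851 promoters in the table. Both strands were searched for CTTTGA as the TCF/LEF motif, AACAAT as the SOX motif and TAATCC as the PITX motif. The AP-1 motif was TGANTCA and the GC box GGGCGG. The remaining motifs were the CCAAT box, the E-box, spelled CANNTG, and the TATA box, spelled TATAAA. E-boxes and GC boxes may overlap other matches. Sfrp5 held 1 GC box, at position -43 from the start, and 1 E-box. Lrig1 held 2 GC boxes, 1 CCAAT box and 1 SOX motif, which lies on the opposite strand and is therefore printed as its reverse complement, at -22. Bmi1 held 6 GC boxes, some of them overlapping, and 1 E-box, and Igfbp5 held 1 E-box. Over all promoters of this length, 32.7% held a GC box, 66.2% an E-box, 33.8% the CCAAT box and 9.42% the SOX motif. The TCF/LEF, PITX, AP-1 and TATA motifs matched in none of the 4 runs, and they matched in 13.8%, 6.25%, 6.75% and 12.4% of all promoters. A match describes the letters and is not evidence of binding.

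Sfrp5 was the member whose start differed between sorted cells and whole incisor. The gene (gene ID 54612) lies at chr19:42197971-42202252 (GRCm38). Over its start, Sox2-positive replicate 1 had a peak of 218 bp, with a −log10 p of 3.93, ranked 27017 in its list. Replicate 2 had one of 694 bp, with a −log10 p of 3.60, ranked 28744. These peaks covered 23 and 67 of the 250 bases printed above and otherwise lay over the transcribed side of the start. Their signals were 246 in replicate 1 and 373 in replicate 2. The replicate 1 value was close to the lowest signal in its list, which is given below with the processing. Ectoderm ranked its peaks 38377 and 33499, lower molar 57876 and upper molar 56205. The ectoderm peaks covered 65 and 117 of the 250 bases, the upper molar peak 10 and the lower molar peak 0. The lower molar peak ended inside the gene, at chr19:42202241, and counted only because the start window extends into the gene. Whole incisor had no peak in that window. The nearest incisor peaks lay 7.56 kb away towards Zfyve27 and 47.8 kb away towards Golga7b, a stretch of 56.3 kb with no incisor peak. Towards Golga7b the Sox2-positive libraries were sparse too. Their next regions on that side lay 41.2 kb (replicate 1) and 38.6 kb (replicate 2) outside the gene body.

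At equal length the Sfrp5 start peak was found in both Sox2-positive libraries and ectoderm replicate 2 only. There the pattern of every library but incisor was held by 0 of 4 members and 0.507% of genes. A start peak in both Sox2-positive libraries and not in incisor was found for 36 of 13797 genes in the full lists (0.261%) and for 209 at equal length (1.51%). Both Sox2-positive libraries kept the peak when 38000 peaks were taken by signal. Neither kept it when each list was shortened to its 50% most significant peaks, where ectoderm replicate 1 alone had it.

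**Figure D1:**
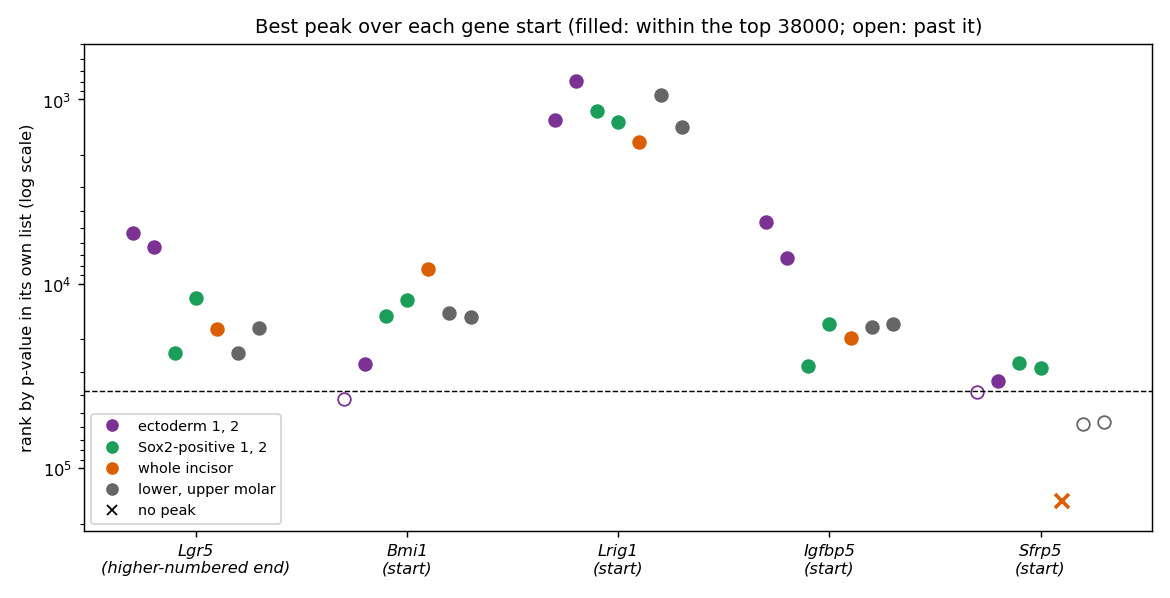
Rank by p-value, within its own list, of the best peak in each start window (for Lgr5, at the higher-numbered gene end), on a log axis with the strongest peaks at the top, for 7 libraries. Lrig1 sits between ranks 792 and 1704 in every library, and whole incisor has no peak at Sfrp5 (cross, placed at an arbitrary height below the ranks).

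Lrig1 (gene ID 16206) lies at chr6:94604529-94700298, Bmi1 (12151) at chr2:18677018-18686629 and Igfbp5 (16011) at chr1:72858065-72874865. The Lrig1 start peak was among the strongest of every list. Sox2-positive cells had it at ranks 1150 and 1320, whole incisor at 1704, ectoderm at 1288 and 792, lower molar at 948 and upper molar at 1414. All 7 libraries thus had it within the first 3.44% of their peaks, and it covered all 250 bases printed above. Bmi1 had ranks of 14891 and 12187 in Sox2-positive cells and 8257 in incisor. Its ectoderm ranks were 42125 and 27277, so that ectoderm replicate 1 lost the Bmi1 start at equal length. Igfbp5 had Sox2-positive ranks of 27767 and 16487, and ranked 19696 in incisor, 17224 and 16488 in the molars, and 4630 and 7243 in ectoderm. In ectoderm the Igfbp5 peak was also the widest, at 1926 and 2888 bp, against 433 and 652 bp in Sox2-positive cells and 533 bp in incisor.

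Lgr5 (gene ID 14160) lies at chr10:115450314-115587780. Every library had a peak within 1 kb of its higher-numbered end, and none had one at the other end. The best peak there ranked 23562 and 11955 among those of Sox2-positive cells, 17560 in incisor, 23700 in lower molar, 17450 in upper molar, and 5305 and 6290 in ectoderm. The incisor rank lay between those of the Sox2-positive replicates, and both ectoderm peaks ranked ahead of every postnatal one. The lists differ in length, so these ranks describe each list and do not measure a change.

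Peaks within 100 kb were next counted for each member. Lgr5 had 5 and 4 peaks in Sox2-positive cells (mean 4.5 ± 0.707, SD, n = 2) and 6 in whole incisor. It had 11 and 8 in ectoderm and 7 in each molar. With equal lists Sox2-positive cells had 5 and 4, incisor 5, with 7 and 7 in ectoderm, and 3 and 4 in the molars. Incisor was thus above both replicates in the full lists and level with replicate 1 at equal length.

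Bmi1 had 6 and 4 peaks in Sox2-positive cells (mean 5 ± 1.41, SD, n = 2) and 6 in incisor. It had 11 and 7 in ectoderm, 5 in lower molar and 6 in upper molar. At equal length the Sox2-positive libraries had 5 and 4, incisor and both molars 4 each, and ectoderm 3 and 6. No group stood apart from the others at equal length.

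Lrig1 had 9 and 10 peaks in Sox2-positive cells (mean 9.5 ± 0.707, SD, n = 2) and 14 in incisor. It had 27 and 12 in ectoderm and 18 and 21 in the molars. In the equal-length lists the Sox2-positive libraries had 8 and 10, incisor 8, ectoderm 12 and 11, lower molar 6 and upper molar 8. The deficit against incisor in the full lists was not present at equal length.

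Igfbp5 had 9 and 16 peaks in Sox2-positive cells (mean 12.5 ± 4.95, SD, n = 2) and 16 in incisor. It had 27 and 24 in ectoderm and 15 in each molar. At equal length the Sox2-positive libraries had 8 and 16, incisor 5, ectoderm 19 and 21, and each molar 9. The replicates differed by as much as replicate 1 itself held, and both lay above incisor and below ectoderm.

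Sfrp5 had 13 and 16 peaks in Sox2-positive cells (mean 14.5 ± 2.12, SD, n = 2) and 16 in incisor. It had 22 and 8 in ectoderm and 22 in each molar. At equal length the Sox2-positive libraries had 12 and 16, incisor 11, ectoderm 8 and 8, lower molar 15 and upper molar 13. Sox2-positive cells then had more peaks than ectoderm in both replicates, and the molars lay within the range of the Sox2-positive replicates.

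**Figure D2:**
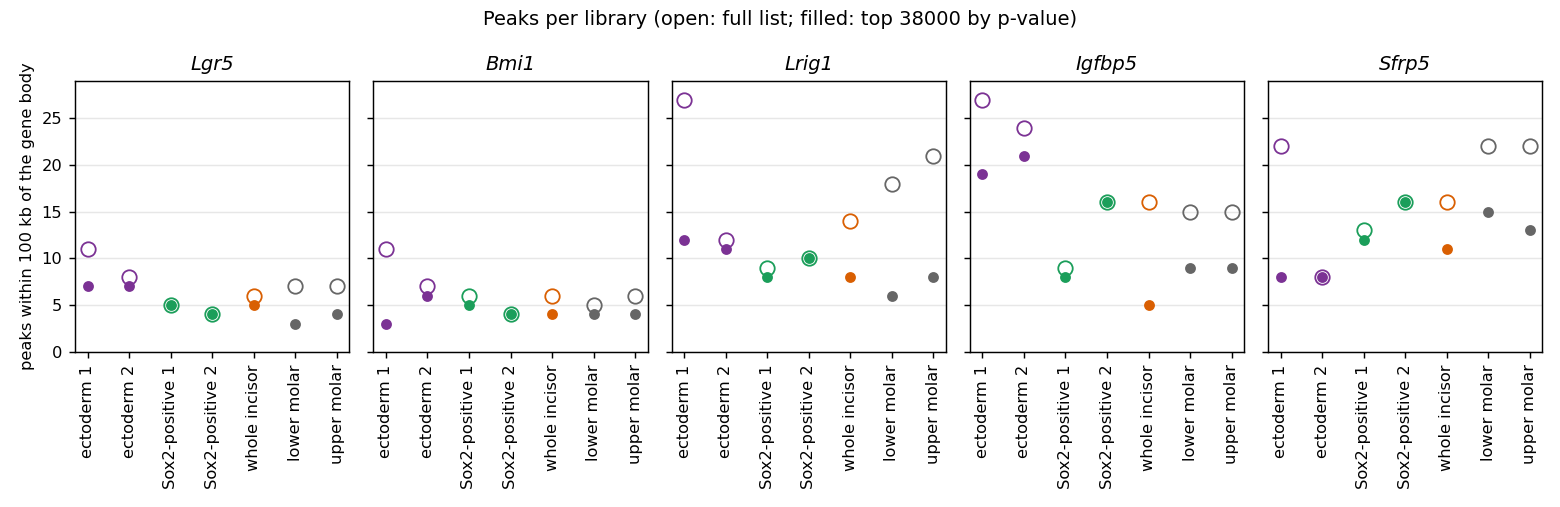
Number of peaks within 100 kb of each gene body in each library, from the full list (open circles) and from the 38000 peaks with the smallest p-values (filled circles). For Igfbp5 the filled circles run from 5 in incisor to 21 in ectoderm, and for Bmi1 from 3 to 6.

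In the full lists incisor had more peaks than each Sox2-positive library for 2 of 5 members, Lgr5 and Lrig1, where 63.3% of all 20665 genes showed this. The reverse held for 0 members, against 2.17% of genes. At equal length incisor had more for 0 members (17.3% of genes), and each Sox2-positive library had more for 2 of 5, Igfbp5 and Sfrp5 (23.0% of genes). Without Sox2-positive replicate 2, whose list is the shortest, the full-list count of members with more peaks in incisor was 4. Incisor then had to exceed replicate 1 only, so this count could only stay or rise. Against ectoderm, each Sox2-positive list had fewer peaks than each ectoderm list for 4 of 5 members in the full lists (48.5% of genes) and for 3 at equal length (22.5%). The reverse held for 0 members in the full lists (1.92%) and for Sfrp5 at equal length (20.7%).

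Counts were then divided by the length of the window. Sox2-positive cells at equal length had 68.5 ± 13.8 peaks per Mb around Sfrp5, 55.4 ± 26.1 around Igfbp5, 30.4 ± 4.78 around Lrig1, 21.5 ± 3.37 around Bmi1 and 13.3 ± 2.10 around Lgr5 (SD, n = 2 each). The medians over all genes were 25.7 and 24.5 peaks per Mb in the same libraries. The Sfrp5 and Igfbp5 replicates overlapped (58.7 and 78.3 against 36.9 and 73.8), while each lower neighbour in this order had both replicates below those of the gene before it. Whole incisor had 53.8 around Sfrp5, 23.1 around Igfbp5, 27.0 around Lrig1, 19.1 around Bmi1 and 14.8 around Lgr5. The windows also hold other genes: 6 other protein-coding genes for Sfrp5, 4 for Lgr5, 3 for Bmi1, and 1 each for Lrig1 (Slc25a26) and Igfbp5 (Igfbp2). For Lgr5, Bmi1 and Sfrp5 the region ranked highest in Sox2-positive cells lay at a neighbour, over Thap2 and Zfc3h1, Commd3 and Avpi1.

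Peaks of all 7 libraries that share at least 1 bp were merged into regions, and 128 regions lay within 100 kb of the members. Both Sox2-positive libraries had 33 of them, and whole incisor also had 29 of these 33. The other 4 (12.1%) had no incisor peak, against 4.39% of 28421 such regions over the autosomes. They lay at 3 of 5 members, while 15.4% of all genes had such a region within 100 kb. That share was not adjusted for window length or number of peaks. The windows were 296 kb at Lrig1, 217 kb at Igfbp5 and 204 kb at Sfrp5, against a median of 217 kb over all genes. All 4 regions kept both properties at equal length. Without Sox2-positive replicate 1 the count was 8, under a looser rule that asked for replicate 2 only. With both replicates and equal lists the count rose to 9 of 33 (27.3%, against 13.3% of regions), again at 3 of 5 members (37.7% of genes).

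The first of the 4 regions was the Sfrp5 start, chr19:42201384-42202369. The second was chr19:42243466-42244116, over no protein-coding gene and nearer to another such gene than to Sfrp5. It lay 41.2 kb outside the Sfrp5 gene body, on the upstream side. It ranked 15212 and 18487 in the Sox2-positive lists and had a peak in upper molar, ranked 50176, but in no other library. At equal length it was found in the Sox2-positive libraries alone, and it was the one of the 4 that both replicates kept in the most significant 50% of each list.

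The third region, chr6:94653592-94654475, lay inside Lrig1, 46.1 kb downstream of its start. Its Sox2-positive ranks were 17295 and 22592, its ectoderm ranks were 25254 and 32321, and no whole-tooth library had it. The fourth, chr1:72960009-72960879, lay 85.1 kb upstream of Igfbp5, outside any protein-coding gene and nearer to another one than to Igfbp5. It ranked 19535 and 24004 in Sox2-positive cells, 4369 and 6684 in ectoderm, and was likewise absent from all 3 whole teeth. Presence in every ectoderm and Sox2-positive library but no whole tooth was found at 95 of the 28421 regions of both Sox2-positive libraries (0.334%), and 1.29% of genes had one within 100 kb. Lrig1 and Igfbp5 were also the 2 of 5 members with such a region at equal length, where there were 3 regions (1.50% of regions and 7.34% of genes). This pattern was singled out after the values were seen.

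**Figure D3:**
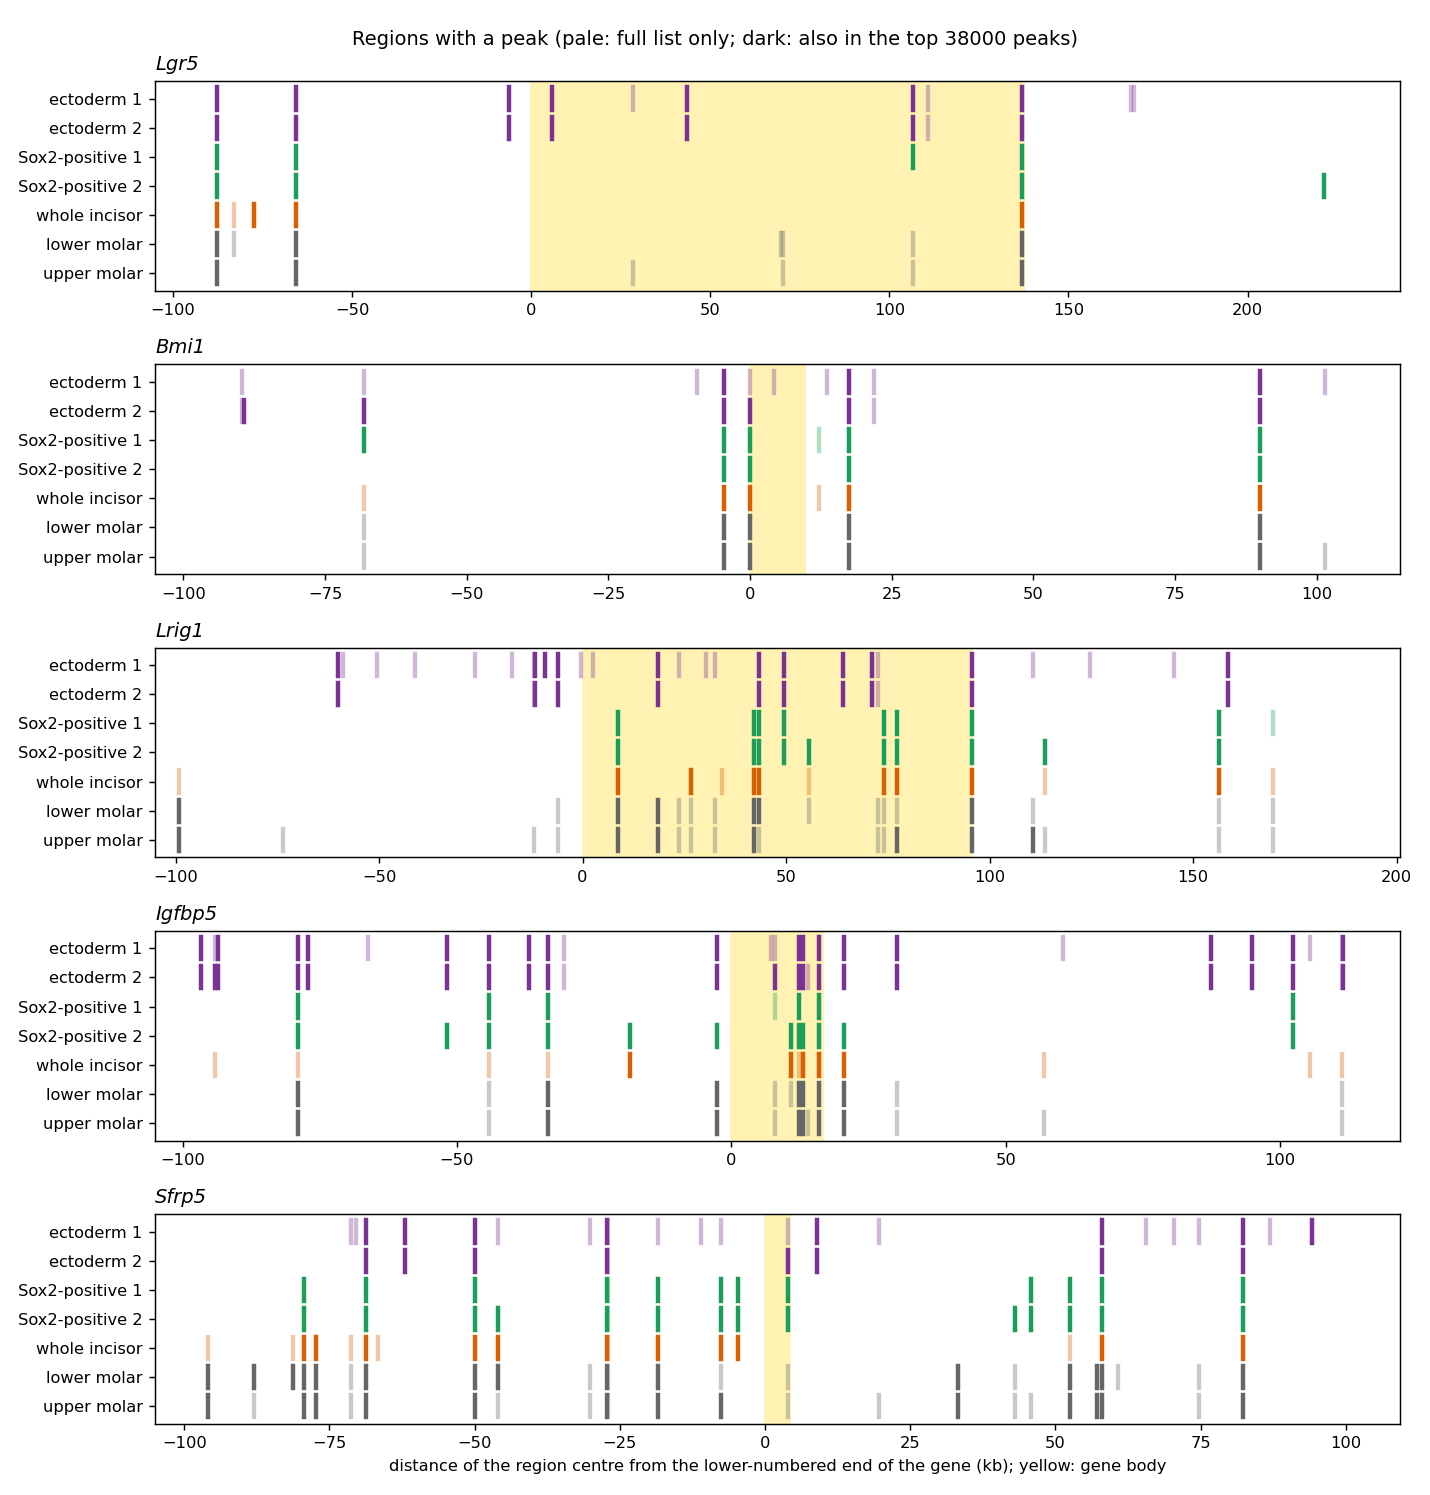
Regions with a peak in each library (rows) by distance in kb of the region centre from the lower-numbered end of each gene, with the gene body in yellow. Pale bars are in the full list only and dark bars also in the top 38000 peaks; incisor has no bar within the Sfrp5 gene body.

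Whole incisor had 53 of the member regions, and 14 of them (26.4%) had a peak in neither Sox2-positive library, against 33.4% of 60256 incisor regions. They lay at 4 of 5 members, all but Bmi1, and 74.9% of all genes had one. At equal length 3 of 32 (9.38%) remained in this class, against 16.8% of regions, at Lgr5, Lrig1 and Sfrp5 (48.0% of genes). By member, Lgr5 had 2 such regions in the full lists, Lrig1 3, Igfbp5 4 and Sfrp5 5. Of the 16 regions at Lgr5, the 3 in both Sox2-positive libraries were in all 7 libraries, and 1 of them belonged to Lgr5 itself as the nearest gene.

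The regions of Sox2-positive cells absent from incisor shifted most with list length at Igfbp5. This gene had 6 regions in both Sox2-positive libraries under either choice, of which incisor had 5 in the full lists and 1 at equal length. The 4 that incisor lost had peaks ranked past 38000 in its list. They were chr1:72778648-72779607, chr1:72813154-72814563, chr1:72823459-72825714 over Igfbp2, and chr1:72870235-72870664 inside Igfbp5, 4.42 kb downstream of its start. In the Sox2-positive lists the last of these ranked 13830 and 23313. All 6 regions were also in both ectoderm libraries, and 4 further regions of Sox2-positive replicate 2 and incisor were absent from replicate 1 in the full lists. At Sfrp5 the region that incisor lost at equal length was chr19:42250046-42250853, over Golga7b. It ranked 15659 and 14743 in Sox2-positive cells, 43184 in incisor, 15902 in lower molar and 11494 in upper molar.

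**Figure D4:**
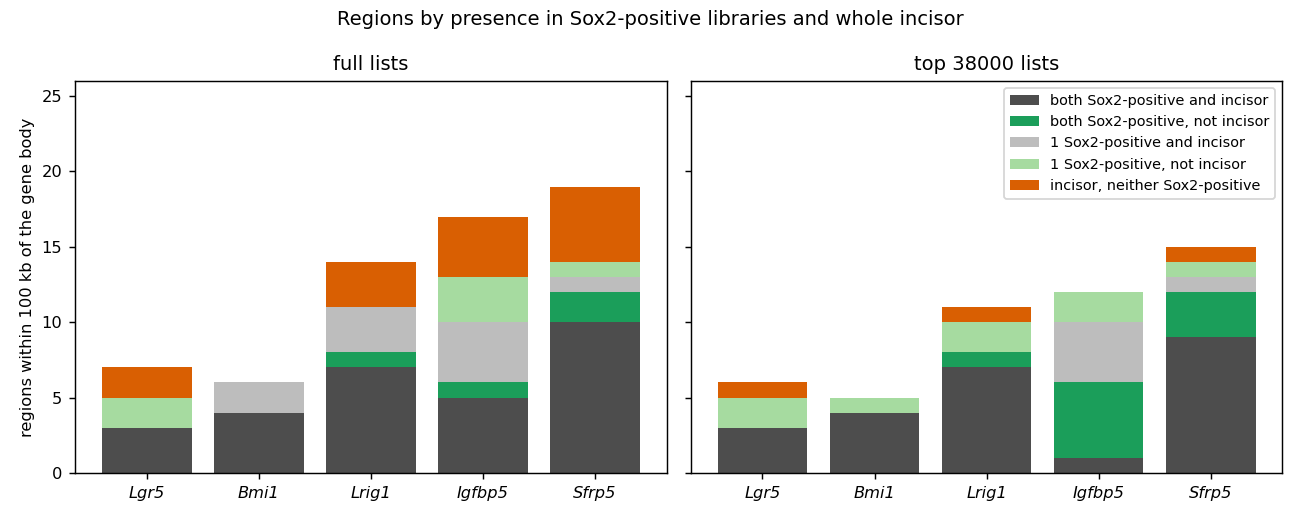
Number of regions within 100 kb of each member (bars from 0) by presence in the Sox2-positive libraries and whole incisor, from full lists (left) and equal-length lists (right). For Igfbp5 the class in both Sox2-positive libraries and not in incisor goes from 1 to 5 regions, and for Lgr5 and Bmi1 it stays at 0.

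Against embryonic ectoderm the full-list shares of the members lay close to the background. Both ectoderm libraries had 55 member regions, of which 26 (47.3%) were in neither Sox2-positive library, against 48.6% of 47274 regions. Of the 33 regions in both Sox2-positive libraries, 9 (27.3%) were in neither ectoderm library, against 26.7%. With equal lists the shares were 44.4% against 37.4% and 33.3% against 34.2%. Without ectoderm replicate 2 the first count was 61, with the longer ectoderm list standing alone for the group. Without Sox2-positive replicate 1 the second was 15. Each rule then took account of the remaining replicate only, so these counts could only stay or rise. All 9 regions lay at Lrig1 (5) and Sfrp5 (4), and none at Lgr5, Bmi1 or Igfbp5. These are 2 of 5 members, and 51.8% of genes had such a region (56.8% at equal length, again with 2 members). The reverse class was found at 5 of 5 members and 83.2% of genes, and at equal length at 4 of 5, all but Bmi1, and 68.7%.

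Inside Lrig1 some sites were found in postnatal libraries only and others in ectoderm only. These groups differ in tissue as well as age, and the contrast does not separate the effects. Regions in all 5 postnatal libraries and neither ectoderm library numbered 5 around Lrig1, 4 of them inside the gene, and 2 around Sfrp5. Together these were 7 of the 33 member regions in both Sox2-positive libraries. The class made up 20.8% of such regions over the autosomes. It was found at 2 of 5 members and 44.6% of genes, so it does not set the members apart. The highest ranked of these at Lrig1 in Sox2-positive cells was chr6:94646097-94647176, 53.5 kb downstream of the start, which Sox2-positive cells ranked 4222 and 2373, incisor 5040, and the molars 5383 and 4489. Another, chr6:94612891-94613716, 86.8 kb downstream, ranked 10101 and 10412 in Sox2-positive cells and 9548 in incisor. Both ectoderm libraries, and no other library, had chr6:94668115-94669122 and chr6:94674869-94676550 inside the gene, the latter ranked 6173 and 4842. At equal length 2 of the 5 postnatal regions at Lrig1 had a peak in all 5 postnatal libraries. Again 2 of 5 members had such a region, and 39.5% of genes.

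Lgr5 had no region of that postnatal class, and neither had Bmi1 or Igfbp5. Lgr5 had 4 regions in both ectoderm libraries and no other library, and 3 at equal length. All 5 members had such an ectoderm-only region in the full lists, as did 73.3% of genes, and 4 of 5 had one at equal length (62.9%), so this does not set Lgr5 apart. Of those at Lgr5, chr10:115455473-115456605 inside the gene ranked 8172 and 8259 in ectoderm, and chr10:115443598-115444384 lay 5.93 kb outside it. A further region inside Lgr5, chr10:115556517-115557505, had ranks of 5474 and 9469 in ectoderm. It was also in Sox2-positive replicate 1, ranked 35351, and in both molars, but not in replicate 2 or incisor. In the Lgr5 body itself Sox2-positive cells had 3 and 1 peaks in the full lists, incisor 2, the molars 4 and 5, and ectoderm 6 and 5, so that upper molar was level with ectoderm replicate 2. The equal-length counts were 3 and 1 for Sox2-positive cells, 2 for incisor, 1 and 2 for the molars, and 4 and 4 for ectoderm.

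Genes that act with the members were counted from lists drawn up beside them, 48 genes in all. In the full lists 0 of 48 had more peaks in each Sox2-positive library than in incisor and 40 had fewer, where the shares over all genes are 2.17% and 63.3%. At equal length 14 of 48 had more and 9 had fewer, against 23.0% and 17.3% of all genes. Of 8 genes of LGR5 and R-spondin signalling, Lgr6, for a receptor related to LGR5 (20 and 27 peaks against 18), and the R-spondin gene Rspo4 (14 and 12 against 11) had more, and Lgr4 and Rspo2 fewer. Of 15 genes of Polycomb repressive complex 1, 6 had more and 1, Cbx6, had fewer. Cbx2 and Cbx8, both among those with more, had the same equal-length count in every library.

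Of 6 LRIG and ERBB genes, 3 had more peaks in each Sox2-positive library at equal length: Lrig3 (12 and 6 against 4), and the receptor genes Erbb2 (14 and 12 against 6) and Erbb3 (16 and 16 against 11). Egfr had fewer, at 9 and 9 against 10. Of 10 genes of insulin-like growth factor binding and signalling, Igfbp2 (8 and 16 against 6) and Igfbp7 (10 and 9 against 8) had more and Igf1r fewer. Igfbp2 is the neighbour of Igfbp5, and their windows overlap. Of 9 secreted WNT antagonists, Sfrp4 (3 and 4 against 2) had more, and Sfrp1, Wif1, Dkk2 and Dkk3 had fewer. Wif1, which encodes a WNT inhibitor, had 9 and 8 peaks against 11.

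Likeness was measured next. The genes on other chromosomes whose equal-length counts over the 7 libraries were most like each member's were ranked by the sum of absolute differences, with ties resolved by the same sum over full-list counts, and 3 are named for each. For Lgr5 these were Arel1, which differed by 1 peak in all, then Egr4 and Smc6, which are 2 of 3 genes that differed by 2. For Bmi1 they were Bdp1, Clca3a2 and Zfp825, each 1 peak away. For Lrig1, Crybg2, Myl7 and Ep300 were each 4 away, as 6 genes were in all. Sfrp5 had Dlgap5 at 5 and Alg14 and 1110038F14Rik at 6. The profile of Igfbp5 was matched less closely, with Rbbp8nl and Ephb2 at 14 and Manbal at 15.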

How the data were processed

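FastQC, Trimmomatic, Bowtie2, deepTools, Genrich and the build mm10 are named in the submitters' processing notes. Each library has its own deposited peak list. The tools' versions, options and roles are not given in the sources used here. The deposited lists give a signal and a −log10 p for each peak, and the lowest signal is 200.0 in every list. No header or label describes a normalization of either, so they served only to rank peaks within a list.

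Autosomal peaks were read with pandas 2.3.3 under Python 3.11.15. Genes came from RefSeq GRCm38.p6, the assembly of mm10. The table has no strand; starts (250 bases before to 50 after) came from the RefSeq promoter table, which holds 4 of the 5 members. Equal-length lists took 38000 peaks by p-value, with ties, up to 2077 peaks at the threshold, resolved by signal. A library had a region if a peak shared at least 1 bp with it. Merging and counting were tested on simulated lists. No test was run and no p-value computed, since incisor is 1 library and an exact permutation test of 2 against 2 cannot go below a p of 0.333. Alternatives varied list length and rank, window (50 kb, gene body), peak extent (200 bp around summits), cover (50%), gene assignment and replicates. All members were named. Regions named were those at gene starts, those in both Sox2-positive libraries and not incisor, and the highest ranked; others were picked after their values were seen. The members and lists were chosen with earlier results of these data known. Counts of members with more peaks in Sox2-positive cells, and the share of regions also in incisor, were added after the lists were seen. The neural and Schwann marker list is not reported here.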

Additional observations from a re-analysis of the deposited data

How the results depend on the processing

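The full-list counts depended on list length and on the window. Members with more peaks in incisor than in each Sox2-positive library numbered 2 in the full lists, 0 with 38000 peaks per library by p-value or by signal, and 1 with the 50% smallest p-values, a 50 kb window, the gene body only or the nearest gene only. Members with more in each Sox2-positive library went from 0 to 2 at equal length by either rank and 1 in each smaller window. Regions in both Sox2-positive libraries and not incisor numbered 4, and became 9 and 8 at equal length by p-value and signal, and 2 with the 50% smallest p-values, the gene body only or the nearest gene only. Incisor regions in neither Sox2-positive library fell from 14 to 3 and 4 at equal length, 3 with the 50% smallest p-values, a 50 kb window or the nearest gene, and 2 in gene bodies. Against ectoderm, Sox2-positive regions went from 9 to 4 in gene bodies and 5 with the nearest gene, and ectoderm regions from 26 to 15 at 50 kb, 7 in gene bodies and 11 with the nearest gene. Smaller windows hold fewer regions by construction; otherwise the cause was not tested.

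Leaving out each replicate in turn gave 3 to 4 members, and 6 to 8, 17 to 21, 9 to 15 and 27 to 61 regions in the same order. By construction these counts could only stay or rise, because each rule then took account of the remaining replicate only. The mean Sox2-positive minus incisor peak count changed sign at equal length by p-value for Bmi1 (from -1 to 0.5), Lrig1 (-4.5 to 1), Igfbp5 (-3.5 to 7) and Sfrp5 (-1.5 to 3). By signal it did so for Bmi1 (0.5), Igfbp5 (7.5), Sfrp5 (3) and Lgr5 (from -1.5 to 0.5), and with the 50% smallest p-values for Lrig1 (0.5) and Igfbp5 (1.5). With the nearest gene only it did so for Lgr5 (0.5) and Sfrp5 (1), and for Sfrp5 also at 50 kb (3) and in the gene body (1). Summit windows and 50% cover moved no count of members or regions by more than 1.5 times. No paired analysis was possible because the results come from no test and incisor is 1 library. Unknown depth limits every absence of a peak.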
